A study of Mus musculus with 30 samples.

Results

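The lymph nodes of 6 Tg26 mice with lymphoma were set against those of 3 FVB/N mice, the non-transgenic strain on whose background the Tg26 animals were kept. The 9 arrays were chosen by the state and tissue in their labels, out of 30 arrays in the series, which hold 1 spleen and 1 lymph node from each of 15 mice. The study compared total RNA of both organs on Affymetrix Mouse Gene ST arrays to find genes that go with B cell lymphoma in this transgenic line. The remaining nodes came from 6 asymptomatic Tg26 mice, which share the transgene.

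The lymphoma mice were heterozygous for Tg26, an HIV-1 provirus without part of gag-pol that gives no infectious virus and is driven by its own long terminal repeats. By the labels about 15% of Tg26 mice develop lymphoma, and the colony was bred from heterozygous animals with skin lesions. The FVB/N mice carry no provirus, and none of the mice is labelled as treated. All animals were killed between 5 and 12 months of age, with no age or sex given per mouse. Lymphoma mice 1 to 3 and all 3 FVB/N mice belong to batch A, and lymphoma mice 4 to 6 to batch B. The controls thus differ from the lymphoma mice both in the transgene and in disease, and the parts of each in a difference cannot be told apart from these 2 groups. Values are deposited log2 levels, where 1 unit stands for a 2-fold difference, and the 3 FVB/N values are always listed in the order of mice 1, 2 and 3.

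A lymph node normally holds mature B cells in follicles and naive T cells in the cortex around them, on a scaffold of reticular stroma, high endothelial venules and lymphatics. Early B cell development takes place in bone marrow. There precursors express the recombinase genes Rag1 and Rag2, which cut antigen receptor loci. They also express the surrogate light chain genes Igll1 and Vpreb1, whose products pair with the first heavy chain before a true light chain exists. Mature B cells silence these genes and turn on Ms4a1 (CD20), Cr2 and Fcer2a.

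The FVB/N nodes carried node markers, but they were not alike. Glycam1, the sulphated mucin of high endothelial venules, lay between 5.80 and 8.80 in lymphoma nodes and stood at 9.48, 11.42 and 12.23 in FVB/N nodes. The node marker Lyve1 stood at 8.15, 9.38 and 9.75 in FVB/N nodes and averaged 5.59 in FVB/N spleens. Prox1 stood at 6.22, 7.22 and 7.91 in FVB/N nodes and averaged 5.49 in FVB/N spleens. The node markers Chst4 and Madcam1 were at most 7.12 in any of the 9 nodes. Of the spleen genes tried, Tlx1 and Vsig4 gave no check, since they were as low in spleens. Nor did Spic, which averaged 8.04 in FVB/N nodes and 7.74 in FVB/N spleens. Nkx2-5 averaged 7.50 in FVB/N nodes and 7.73 in FVB/N spleens, and Alas2 averaged 7.61 and 8.71. The mean level of 21 salivary gland genes was highest in mouse 5 among the lymphoma nodes and between 5.44 and 5.61 in the other 5, against 5.44, 10.50 and 8.59 in FVB/N nodes. A list of 25 adipose and muscle genes averaged 6.19 to 6.52 in lymphoma nodes, against 6.32, 8.95 and 6.81 in FVB/N nodes. Exocrine pancreas genes averaged 5.79 to 6.02 in all 9 nodes. With surrogate variables none of the 21 salivary gland or 20 pancreas genes passed and 1 of the 25 adipose and muscle genes fell (2 without FVB/N nodes 2 and 3). Without surrogate variables 13 salivary gland genes fell, and the median measured difference of that list was -1.77. Xist, expressed from the inactive X chromosome, stood at 11.93 and 10.91 in lymphoma mice 3 and 5 and between 4.66 and 5.75 in the other 7. The Y-linked Eif2s3y stood at 3.86 and 3.85 in those mice and between 8.82 and 9.87 in the other 7. By these genes mice 3 and 5 had the female pattern and all other mice the male one, so sex was not balanced between the groups. With surrogate variables 1 of 4 sex-linked genes rose and 3 fell. None passed without surrogate variables, among batch A arrays or with batch and tissue list means as covariates. Beside several lists the counts without FVB/N nodes 2 and 3 are also given. This setting leaves 1 control node and a spread borrowed from the other groups.

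**Figure D1:**
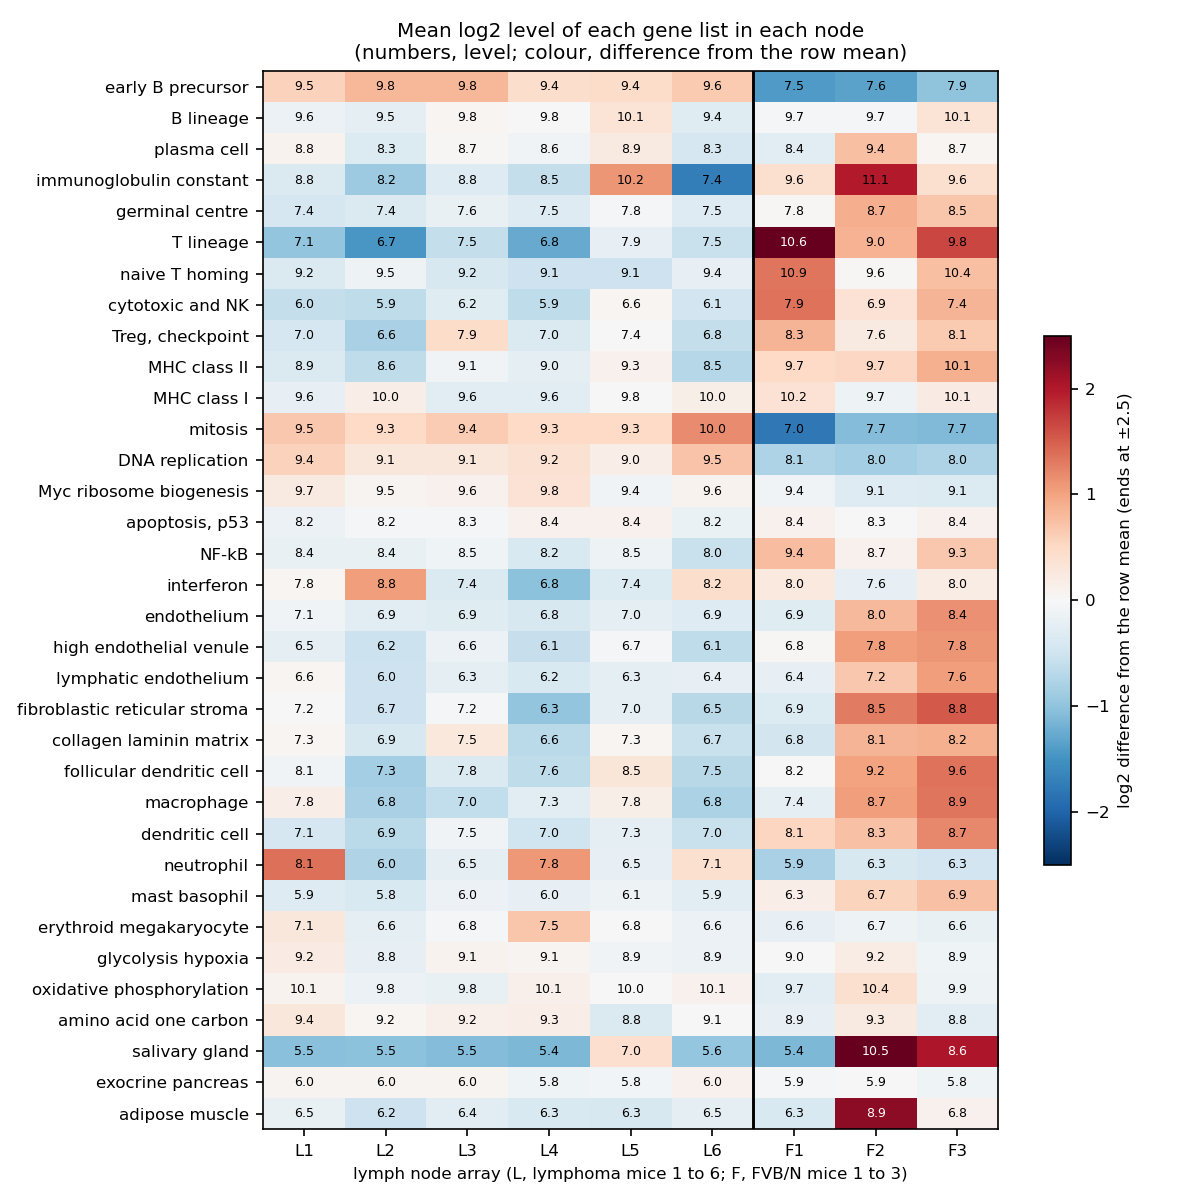
Mean log2 level of each gene list (rows) in each of the 9 lymph node arrays (columns, lymphoma mice 1 to 6 left and FVB/N mice 1 to 3 right). Numbers are levels and the colour is the difference from the mean of the row, with red higher. T lineage means lie between 6.65 and 7.91 in lymphoma nodes and between 8.98 and 10.64 in FVB/N nodes, and salivary gland genes stand out in FVB/N nodes 2 and 3.

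Lymphoma nodes differed from FVB/N nodes in 3304 of 19938 genes (16.6%, limma with surrogate variables, Benjamini-Hochberg adjusted p under 0.05). Of these, 1713 were higher in lymphoma nodes (8.59% of all genes) and 1591 lower (7.98%), and 1330 differed by at least 1 log2 unit. At an unadjusted p under 0.05 the count was 5406. The median difference over all genes was 0.01 as fitted and 0.05 as measured. Measured levels did not overlap between the 6 lymphoma and the 3 FVB/N nodes for 3690 genes (18.5%), 2046 of them higher (10.3%) and 1644 lower (8.25%). Both criteria held for 1700 genes. Without FVB/N nodes 2 and 3 the fit called 2309 genes, which included 1113 of the rises and 1024 of the falls. No gene called in the full fit changed sign there. Of the 3304 genes, 162 had a fitted and a measured difference of opposite sign, and both values are given for those named below. Of 158 called genes that the naming rule took, 41 did not pass without FVB/N nodes 2 and 3.

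**Figure D2:**
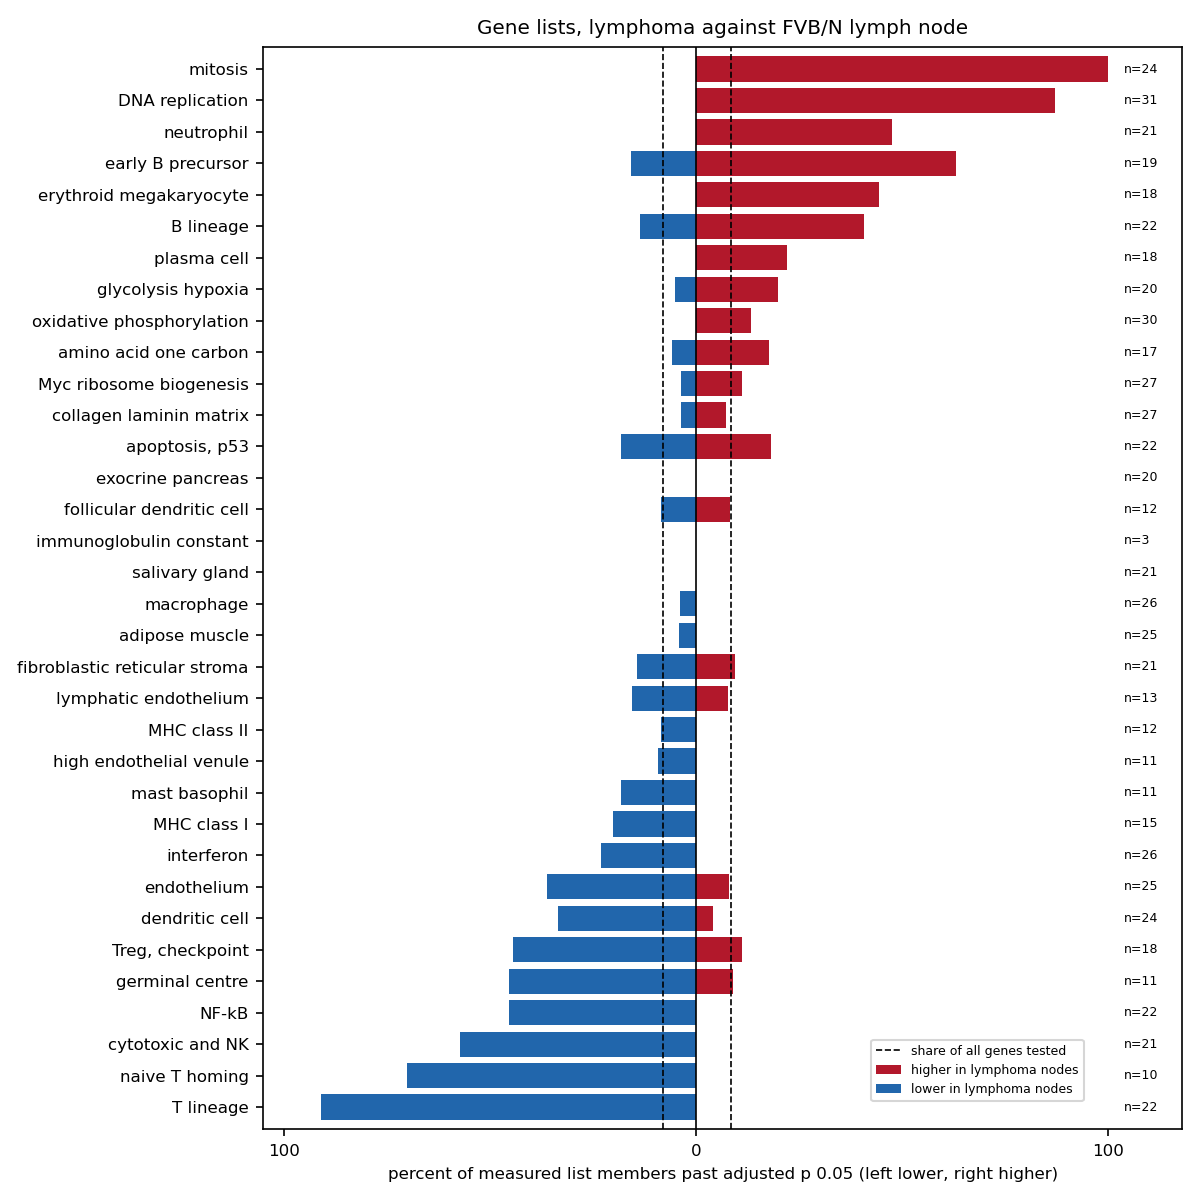
Share of the measured members of each gene list that passed adjusted p 0.05, lower in lymphoma nodes to the left and higher to the right, with the number measured (n) at the right edge. Dashed lines mark the shares over all genes tested, 8.59% higher and 7.98% lower. All 24 mitosis genes were higher and 20 of 22 T lineage genes lower.

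Genes of B cell precursors were among the largest rises. Of 19 measured members of an early B cell list, 12 rose and 3 fell, against 8.59% and 7.98% of all genes, with a median fitted difference of 2.15 and a median measured one of 2.08. Igll1, the lambda-5 chain of the surrogate light chain, averaged 12.33 ± 0.44 (SD, n = 6) in lymphoma nodes and 7.05 ± 0.84 (SD, n = 3) in FVB/N nodes. Its lymphoma values lay between 11.82 and 12.95 (median 12.35), against 6.29, 6.91 and 7.95 in FVB/N nodes, and the fitted rise was 5.25 (SE 0.47, adjusted p = 4.83e-08). Rag1 lay between 9.85 and 11.22 (median 10.70) in lymphoma nodes, against 5.27, 5.50 and 6.02 in FVB/N nodes (4.56, SE 0.50, adjusted p = 7.53e-07). For both genes the gap between the groups was wider than the range within either. In bulk RNA a change in the share of a cell type and a change in RNA per cell cannot be told apart, here and below.

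The 300-base RefSeq promoters (GRCm38.p6, minus strand, mostly before the start and reaching past it) of 3 of these genes are shown because the surrogate light chain and the recombinase set the precursor pattern. Capitals mark E boxes of the letters CAGGTG or CAGCTG on either strand, the kind of site that E proteins such as E2A, regulators of early lymphocytes, are known to bind.
Igll1, chr16:16863936-16864235: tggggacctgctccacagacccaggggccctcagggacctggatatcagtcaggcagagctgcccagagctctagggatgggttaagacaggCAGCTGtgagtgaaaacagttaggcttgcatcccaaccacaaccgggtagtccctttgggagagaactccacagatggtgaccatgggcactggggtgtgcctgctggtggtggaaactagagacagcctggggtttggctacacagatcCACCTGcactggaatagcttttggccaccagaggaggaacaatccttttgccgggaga
Vpreb1, chr16:16869206-16869505: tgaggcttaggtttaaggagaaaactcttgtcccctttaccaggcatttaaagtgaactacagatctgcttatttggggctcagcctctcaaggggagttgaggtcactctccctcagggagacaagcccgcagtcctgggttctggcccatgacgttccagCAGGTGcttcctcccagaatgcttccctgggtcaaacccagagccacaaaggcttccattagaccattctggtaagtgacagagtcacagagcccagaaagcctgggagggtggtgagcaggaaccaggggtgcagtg
Rag1, chr2:101649483-101649782: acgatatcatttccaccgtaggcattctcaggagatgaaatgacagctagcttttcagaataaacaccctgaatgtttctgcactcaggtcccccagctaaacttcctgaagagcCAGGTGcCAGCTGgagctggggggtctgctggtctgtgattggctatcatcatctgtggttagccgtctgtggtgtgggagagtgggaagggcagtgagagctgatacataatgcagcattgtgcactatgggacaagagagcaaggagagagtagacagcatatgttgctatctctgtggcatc
The Igll1 and Rag1 windows hold 2 such matches each and the Vpreb1 window 1. Of all 32851 promoters in the table, 10823 (32.9%) hold at least 1. Among the early B cell list, 16 of 19 genes had an entry, and 15 of their 30 promoters hold 1, as do 9 of 18 promoters of T lineage genes. A match describes the letters and is not a shown binding site.

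Further members rose. Vpreb3 lay between 11.57 and 12.15 (median 11.99) in lymphoma nodes, against 7.91, 8.22 and 8.10 in FVB/N nodes (4.07, SE 0.23, adjusted p = 1.03e-10). Vpreb1, whose promoter is shown above, lay between 9.60 and 10.94 (median 10.11) in lymphoma nodes, against 6.79, 6.35 and 6.90 in FVB/N nodes (3.02, SE 0.30, adjusted p = 2.2e-07). Neither gene overlapped between the groups. Vpreb2, a near-identical copy of Vpreb1 whose transcript the probes may share, rose by 2.07, and Rag2 by 2.73. Cd93, a surface receptor of immature B cells and also of endothelium, lay between 10.72 and 11.37 (median 11.09) in lymphoma nodes, against 6.74, 8.43 and 8.66 in FVB/N nodes. Its fitted rise was 4.18 (SE 0.28, adjusted p = 1.44e-09) and the measured one 3.13.

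A trio of transcription factor genes of progenitors also rose without overlap. Myb, needed for the step from pro-B to pre-B cell, lay between 10.84 and 11.28 (median 11.05) in lymphoma nodes, against 7.91, 7.36 and 8.22 in FVB/N nodes (3.35, SE 0.27, adjusted p = 1.48e-08). Sox4 lay between 9.29 and 10.30 (median 10.00) in lymphoma nodes, against 7.12, 7.24 and 7.56 in FVB/N nodes (2.15, SE 0.24, adjusted p = 7.29e-07). Erg, shared by progenitors and endothelium, lay between 9.34 and 10.46 (median 9.99) in lymphoma nodes, against 6.63, 7.23 and 7.67 in FVB/N nodes (2.56, SE 0.32, adjusted p = 4.99e-06). Cd24a, the heat stable antigen, rose by 2.06 as fitted and 0.67 as measured, and FVB/N node 2 stood at 11.57, above all 6 lymphoma nodes. Some members of the list were not called higher. Dntt, which adds bases at receptor joins, lay between 5.30 and 7.08 in lymphoma nodes, against 5.65, 5.35 and 5.70 in FVB/N nodes (0.72, SE 0.67, adjusted p = 0.551). Kit differed by 0.70 as fitted and by -0.73 as measured (adjusted p = 0.455), and Il7r, the interleukin-7 receptor that T cells also carry, by 0.42 (adjusted p = 0.392). Flt3, a growth factor receptor of progenitors and dendritic cells, fell by 0.99 (SE 0.22, adjusted p = 0.00292), to between 6.35 and 6.84 in lymphoma nodes, against 8.05, 7.76 and 8.53 in FVB/N nodes. The other members that fell were Spn and Lef1, and without surrogate variables 1 member fell in place of 3.

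**Figure D3:**
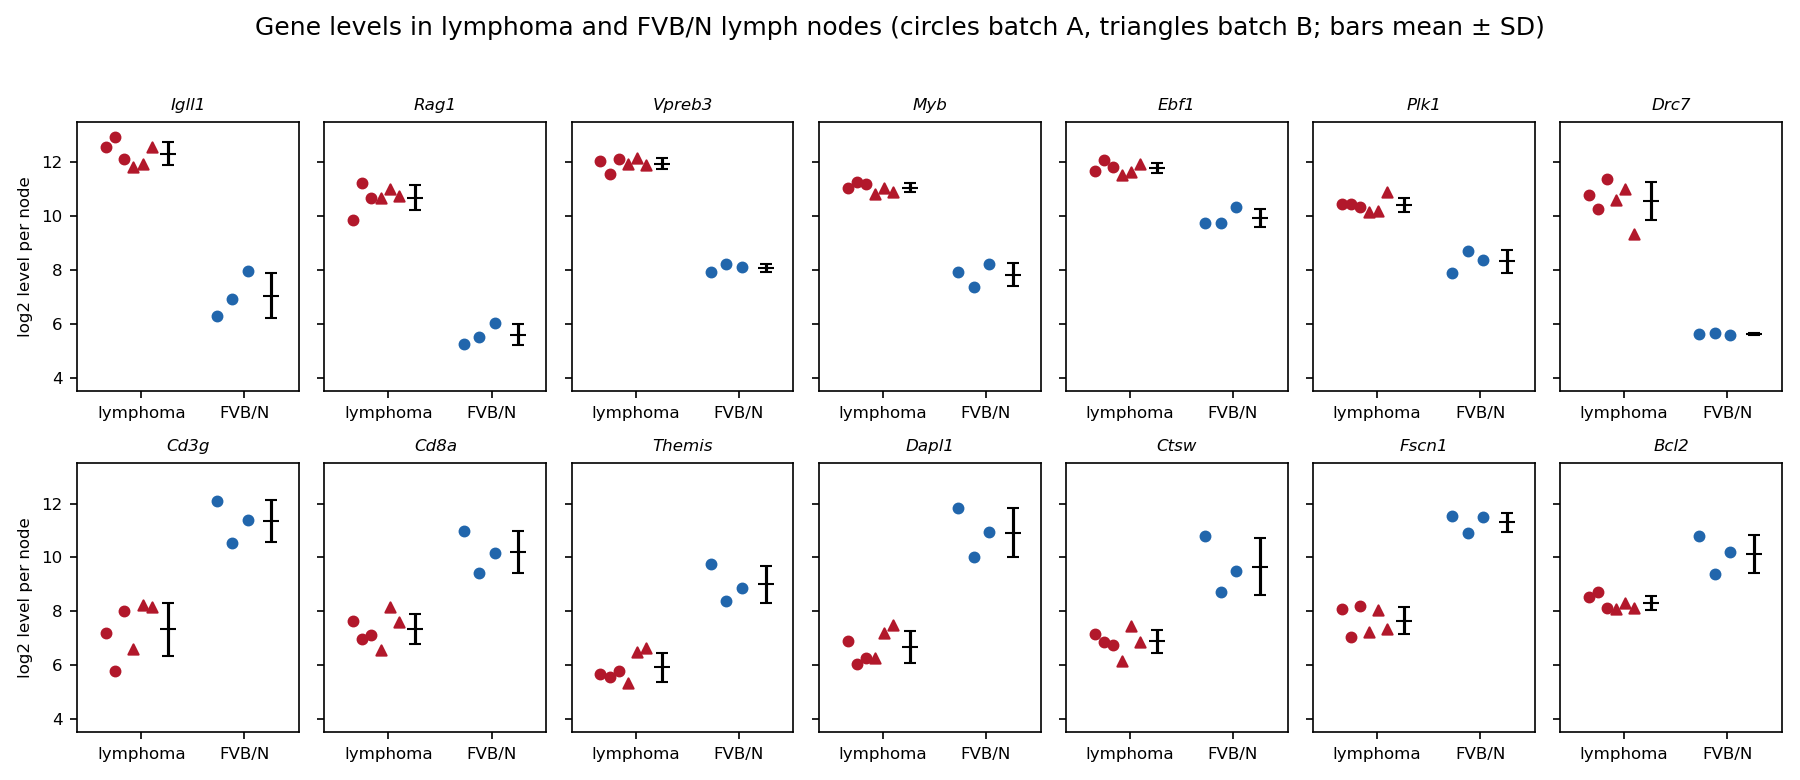
Log2 levels of 14 genes in the 6 lymphoma nodes (left, red) and the 3 FVB/N nodes (right, blue), 1 point per mouse, circles batch A and triangles batch B, with mean ± SD beside them. In each of the 14 panels the 2 groups do not overlap, a condition that the naming rule set for part of these genes. Batch A and batch B lymphoma nodes stand side by side.

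B lineage genes moved both ways. Of 22 measured, 9 rose and 3 fell, against 8.59% and 7.98% of all genes. The median was 0.75 as fitted and -0.04 as measured, so the sign of the list as a whole depends on the adjustment. Ebf1, the factor that specifies the B lineage, lay between 11.54 and 12.08 (median 11.76) in lymphoma nodes, against 9.74, 9.76 and 10.33 in FVB/N nodes (1.72, SE 0.20, adjusted p = 2.38e-06). Btk, the kinase below the receptor, lay between 9.85 and 10.59 (median 10.31) in lymphoma nodes, against 8.47, 8.26 and 8.91 in FVB/N nodes (1.79, SE 0.18, adjusted p = 1.75e-07). The adaptor Blnk rose by 1.52, the coactivator Pou2af1 by 1.47 and the receptor chain Cd79a by 1.35 (largest SE 0.25, highest adjusted p 0.000369), each without overlap. Pax5, which holds B cell identity, rose by 0.89 (SE 0.22, adjusted p = 0.00637), with lymphoma nodes between 10.20 and 11.12 and FVB/N nodes at 9.31, 9.23 and 9.75. Cd79b rose by 1.24 as fitted, with a measured difference of 0.55, overlapping groups and adjusted p = 0.19 without surrogate variables.

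Ms4a1 pointed the other way. It lay between 7.77 and 9.96 (median 8.74) in lymphoma nodes, against 10.72, 10.89 and 11.19 in FVB/N nodes (-1.55, SE 0.49, adjusted p = 0.0303). Cr2 (CD21), found on mature B cells and follicular dendritic cells, fell by 1.75 (SE 0.44, adjusted p = 0.00664), and Cxcr5, which guides B cells into follicles, by 1.59 (SE 0.41, adjusted p = 0.00838). In all 3 genes every lymphoma node was below every FVB/N node. None of the 3 passed without FVB/N nodes 2 and 3, where adjusted p was 0.252, 0.204 and 0.127. Fcer2a (CD23) varied widely. Lymphoma nodes lay between 5.73 and 10.23, against 10.71, 10.30 and 11.03 in FVB/N nodes, without passing (adjusted p = 0.129).

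Among 18 plasma cell genes 4 rose and none fell, against 8.59% and 7.98% of all genes. The rises numbered 2 when lymphoma mouse 1, lymphoma mouse 3 or FVB/N mouse 3 was left out. Mzb1, a chaperone of marginal zone B cells and plasma cells, lay between 10.70 and 11.19 (median 10.86) in lymphoma nodes, against 7.89, 9.67 and 8.83 in FVB/N nodes (2.80, SE 0.25, adjusted p = 4.52e-08). The groups did not overlap. The other 3 risers were Sdc1, Prdm1 and Derl3, which did not pass without FVB/N nodes 2 and 3 (adjusted p 0.063, 0.589 and 0.0844), and the measured differences of Prdm1 and Derl3 were negative (-0.26 and -1.37). Of the immunoglobulin constant genes 3 were measured and none passed. Ighm, Ighg3 and Igha differed by 1.10, 0.92 and 1.18 as fitted but by -0.90, -1.59 and -1.70 as measured. FVB/N node 2, which holds salivary gland transcripts, had the highest level of all 9 nodes for each of the 3 genes, and the part of that tissue in these values was not tested. Of 11 germinal centre genes 5 fell and 1 rose, against 7.98% and 8.59% of all genes. Basp1 lay between 7.90 and 8.59 (median 8.26) in lymphoma nodes, against 10.11, 10.32 and 10.36 in FVB/N nodes (-1.61, SE 0.21, adjusted p = 5.5e-06). Fas, the death receptor, fell by 1.85 (SE 0.18, adjusted p = 1.95e-07), while the riser was Stmn1, a tubulin regulator of dividing cells. Without FVB/N nodes 2 and 3 the falls numbered 2.

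The machinery of cell division was higher throughout. All 24 measured mitosis genes rose, with a median of 2.34 as fitted and 2.01 as measured, and in each of the 24 every lymphoma node was above every FVB/N node, as in 10.3% of all genes. Plk1, the polo-like kinase, lay between 10.17 and 10.89 (median 10.40) in lymphoma nodes, against 7.88, 8.70 and 8.38 in FVB/N nodes (2.42, SE 0.28, adjusted p = 1.68e-06). Ccnb2, a mitotic cyclin, lay between 10.00 and 11.21 (median 10.56) in lymphoma nodes, against 7.97, 9.36 and 8.88 in FVB/N nodes (2.98, SE 0.24, adjusted p = 1.96e-08). FVB/N node 1 had the lowest mitosis mean of the 9 nodes at 7.03, with nodes 2 and 3 at 7.73 and 7.71 and lymphoma nodes between 9.31 and 10.00. The list's count remained at 24 under each alternative fit for which it was counted. Aurkb, a kinase of chromosome segregation, rose by 2.51, Bub1b of the spindle checkpoint by 2.66, and Cenpa, the centromeric histone, by 1.74.

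The 40-base stretches below, from RefSeq promoters (GRCm38.p6, written along the gene's own strand), are shown because these genes move together. Capitals mark TTTGAA, the core of the element known as CHR in cell cycle promoters, and the 5 genes were chosen because they hold it near the start.
Ccnb2, chr9:70421528-70421567, minus strand: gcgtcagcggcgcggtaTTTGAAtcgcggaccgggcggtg
Cdc20, chr4:118437339-118437378, minus strand: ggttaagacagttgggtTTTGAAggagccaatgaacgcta
Plk1, chr7:122159445-122159484, plus strand: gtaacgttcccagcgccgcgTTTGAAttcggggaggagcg
Cenpa, chr5:30666885-30666924, plus strand: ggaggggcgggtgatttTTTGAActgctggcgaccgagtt
Bub1b, chr2:118598221-118598260, plus strand: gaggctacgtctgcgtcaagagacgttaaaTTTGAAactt
Of the 24 mitosis genes 20 had an entry, with 21 promoters, and 17 of these (81.0%) hold TTTGAA on either strand. The share was 17.9% over all promoters (5878 of 32851) and 12.9% among 31 promoters of DNA replication genes.

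DNA replication genes rose with smaller steps. Of 31 measured, 27 rose and none fell, against 8.59% and 7.98% of all genes, with a median of 1.17 as fitted and 1.33 as measured. Rrm2, the regulated subunit of ribonucleotide reductase, lay between 10.20 and 10.92 (median 10.54) in lymphoma nodes, against 8.03, 8.88 and 8.67 in FVB/N nodes (2.49, SE 0.31, adjusted p = 4.98e-06). The origin factor Gins1 rose by 2.11, Mcm10 by 1.64 and Cdc6 by 1.60 (largest SE 0.24, highest adjusted p 1.74e-05). The 4 members that did not pass were Pcna, Cdt1, Gins3 and Gins4. Ribosome biogenesis and Myc target genes, also linked with growth, depended on the fit. With surrogate variables 3 of 27 rose and 1 fell, against 8.59% and 7.98% of all genes. Without them 10 rose and none fell, and among batch A arrays 9 rose and none fell. In 10 of 27 every lymphoma node was above every FVB/N node, against 10.3% of all genes. Pes1 and Wdr12, both of the same ribosome assembly complex, rose by 0.49 and 0.55, and 1 member rose without FVB/N nodes 2 and 3. Odc1, which opens polyamine synthesis, rose by 1.10 (SE 0.28, adjusted p = 0.00702).

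The largest fitted rise of the named genes outside the sex-linked list was that of Drc7, a component of the dynein regulatory complex of motile cilia. It lay between 9.34 and 11.38 (median 10.70) in lymphoma nodes, against 5.62, 5.65 and 5.58 in FVB/N nodes, with a fitted rise of 5.39 (SE 0.40, adjusted p = 4.88e-09). The nodes of asymptomatic mice had a median of 5.73 and a highest value of 6.43, so all 6 lymphoma nodes were apart from both other states. Both measured genes next to it on one side of chromosome 8 rose as well. Adgrg1, an adhesion receptor of cytotoxic cells and progenitors, lay between 10.92 and 11.95 (median 11.46) in lymphoma nodes, against 6.58, 9.12 and 7.98 in FVB/N nodes (4.84, SE 0.28, adjusted p = 1.03e-10). Adgrg3, between them in RefSeq order, lay between 9.01 and 11.45 (median 10.37) in lymphoma nodes, against 7.15, 6.93 and 7.26 in FVB/N nodes (2.76, SE 0.34, adjusted p = 3.05e-06). The next measured genes outwards, Ccdc102a and Dok4 on one side and Kifc3, Cngb1, Tepp and Zfp319 on the other, had fitted differences from -0.12 to 0.20 and did not pass. Neighbours were looked up after the rise of Drc7 was seen.

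Several other large rises belong to no list. Cdhr2, a protocadherin of brush borders, lay between 6.59 and 9.84 (median 9.51) in lymphoma nodes, against 5.54, 5.18 and 5.26 in FVB/N nodes (4.31, SE 0.67, adjusted p = 6.33e-05). Cdh17, a cadherin of intestine and of B cells in mice, lay between 6.55 and 11.83 (median 8.97) in lymphoma nodes, against 5.46, 5.31 and 5.75 in FVB/N nodes (4.74 as fitted and 3.38 as measured, SE 0.80, adjusted p = 0.000162). Both spread widely among the lymphoma nodes while staying above the controls. Ptgr1, which reduces prostaglandins and leukotrienes, rose by 4.31, the cytoskeletal linker Gas2l3 by 4.07, the ketone-forming lyase Hmgcll1 by 4.03, and the chromatin remodelling subunit Cecr2 by 3.56 (largest SE 0.47, highest adjusted p 6.42e-07). Endou, a nuclease also found in B cells, rose by 3.82 as fitted and 2.35 as measured, and Tmem255a by 3.42 as fitted and 3.73 as measured. The groups did not overlap for these 8 genes, which the rule for naming them required.

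T cell genes fell almost as a block. Of 22 measured members 20 fell and none rose, against 7.98% and 8.59% of all genes. Their median was -2.71 as fitted and -2.85 as measured. In 19 members every lymphoma node was below every FVB/N node, as in 8.25% of all genes. Cd3g, which builds the signalling part of the T cell receptor, averaged 7.33 ± 0.99 (SD, n = 6) in lymphoma nodes and 11.36 ± 0.78 (SD, n = 3) in FVB/N nodes. Its values lay between 5.77 and 8.25 (median 7.59) in lymphoma nodes, against 12.11, 10.55 and 11.41 in FVB/N nodes (-3.55, SE 0.55, adjusted p = 6.18e-05). Cd4, the coreceptor of helper cells, lay between 6.40 and 8.65 (median 7.73) in lymphoma nodes, against 11.67, 10.04 and 10.71 in FVB/N nodes (-3.06, SE 0.42, adjusted p = 1.33e-05). Cd8b1, a chain of that of killer cells, lay between 6.48 and 8.18 (median 6.80) in lymphoma nodes, against 11.05, 9.11 and 10.01 in FVB/N nodes (-3.27, SE 0.34, adjusted p = 3.61e-07). Genes of both T cell branches were lower in every lymphoma node. The falls of Cd3d, Cd8a, Cd27, Themis and Prkcq lay between 2.99 and 3.46 log2 units (highest adjusted p 1.22e-06).

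The 2 members that did not pass were Cd2, between 8.43 and 10.27 in lymphoma nodes, against 10.96, 9.30 and 10.01 in FVB/N nodes, and Sit1, between 8.81 and 9.89, against 10.33, 8.49 and 9.57. FVB/N node 1 had the highest T list mean (10.64) and node 2, with the most salivary gland RNA, the lowest of the 3 (8.98). Without nodes 2 and 3 the list kept 20 falls and its median was -2.95.

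Genes of naive T cells and their traffic fell in 7 of 10, against 7.98% of all genes. Dapl1, found in naive T cells in mice, had the largest fall of the named genes outside the sex-linked list. It lay between 6.03 and 7.48 (median 6.58) in lymphoma nodes, against 11.82, 10.01 and 10.93 in FVB/N nodes (-4.65, SE 0.46, adjusted p = 1.75e-07). Ccr7, the receptor that brings naive T and mature dendritic cells into the cortex, fell by 2.28 (SE 0.26, adjusted p = 1.59e-06), to between 8.74 and 10.37 in lymphoma nodes, against 12.02, 10.25 and 11.10 in FVB/N nodes. One FVB/N node thus lay within the lymphoma range. The sphingosine receptor S1pr1, which lets lymphocytes leave, fell by 1.53. Lef1, shared by naive T cells and B cell precursors, fell by 1.00 as fitted, while the measured difference was 0.10. The RNA transporter Sidt1 fell by 3.38 and the T and NK cell receptor Cd96 fell by 3.08 (largest SE 0.35, highest adjusted p 3.92e-07). Neither overlapped between the groups, which the rule for naming them required.

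Killer cell genes were lower in 12 of 21 and higher in none, against 7.98% and 8.59% of all genes. Ctsw, a protease of cytotoxic granules, lay between 6.16 and 7.46 (median 6.87) in lymphoma nodes, against 10.81, 8.70 and 9.48 in FVB/N nodes (-2.86, SE 0.23, adjusted p = 1.68e-08). Ncr1, which marks NK cells, lay between 4.91 and 5.96 (median 5.18) in lymphoma nodes, against 8.54, 7.05 and 8.14 in FVB/N nodes (-2.26, SE 0.30, adjusted p = 8.42e-06). Neither overlapped. Perforin (Prf1) fell by 1.73 and the transcription factor Eomes by 1.76. The granzymes Gzma, Gzmb and Gzmk did not pass: their lymphoma medians were 5.43, 5.81 and 5.34, and no FVB/N node exceeded 7.22 for any of them.

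Genes of regulatory T cells and checkpoints split. Of 18, 8 fell and 2 rose, against 7.98% and 8.59% of all genes, and 5 fell without FVB/N mouse 1. Foxp3, the regulatory T cell factor, fell by 1.14 (SE 0.35, adjusted p = 0.0272), and Pdcd1 (PD-1) by 0.96 (SE 0.21, adjusted p = 0.00202), to between 6.50 and 7.25 in lymphoma nodes, against 8.13, 7.67 and 7.54 in FVB/N nodes. Tox, a factor of T cell development and exhaustion, fell by 2.23. Cd244a, a receptor of NK cells and some progenitors, went up: it lay between 8.20 and 9.57 in lymphoma nodes, against 6.56, 6.19 and 6.53 in FVB/N nodes (2.86, SE 0.23, adjusted p = 1.29e-08). The other riser was Entpd1 (CD39), an ectonucleotidase that B cells also carry, at 1.44 (SE 0.23, adjusted p = 8.11e-05).

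Genes of NF-kB signalling fell in 10 of 22 and rose in none, and 5 falls passed without FVB/N nodes 2 and 3. Of all genes 7.98% fell and 8.59% rose in the full fit. Traf1, a target and adaptor of the pathway, lay between 6.66 and 7.80 (median 6.86) in lymphoma nodes, against 9.69, 8.32 and 9.33 in FVB/N nodes (-1.92, SE 0.23, adjusted p = 3.19e-06). Tnip1, a brake on the pathway, fell by 1.19, and Relb and Nfkb2, subunits of its noncanonical arm, by 0.83 and 0.77 (largest SE 0.19, highest adjusted p 0.00348). Cd40, the receptor through which T cells help B cells, lay between 7.99 and 8.36 (median 8.09) in lymphoma nodes, against 9.56, 9.31 and 9.94 in FVB/N nodes (-1.12, SE 0.26, adjusted p = 0.00353). Without FVB/N nodes 2 and 3 neither Cd40 nor Nfkb2 passed (adjusted p = 0.0684 and 0.0708).

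Survival genes moved both ways, 4 of 22 higher and 4 lower, against 8.59% and 7.98% of all genes. Bcl2, the survival factor of mature lymphocytes, lay between 8.09 and 8.70 (median 8.22) in lymphoma nodes, against 10.79, 9.39 and 10.20 in FVB/N nodes (-1.90, SE 0.20, adjusted p = 4.36e-07). Its relative Bcl2l1 (Bcl-xL), which precursors rely on, did not pass, with lymphoma nodes between 7.72 and 8.57 and FVB/N nodes at 7.67, 7.02 and 7.33 (0.46, SE 0.29, adjusted p = 0.349). The cell cycle inhibitor Cdkn2c rose by 1.73 (SE 0.30, adjusted p = 0.0002) and the pore-forming Bak1 by 0.73 (SE 0.14, adjusted p = 0.000565). The p53 target genes Mdm2, Ccng1 and Phlda3 did not pass (adjusted p 0.778, 0.349 and 0.933).

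MHC class II genes were lower in measured level but mostly did not pass. Ciita, their master regulator, fell by 0.94 (SE 0.25, adjusted p = 0.0105), with lymphoma nodes between 6.22 and 8.53 (median 7.53) and FVB/N nodes at 8.86, 9.05 and 9.42. It was the only one of 12 to pass, and it did not without FVB/N nodes 2 and 3 (adjusted p = 0.1), while 6 had every lymphoma node below every FVB/N node, as in 8.25% of all genes. Among batch A arrays alone 7 fell. The invariant chain Cd74 lay between 10.60 and 11.98 (median 11.29) in lymphoma nodes, against 12.57, 12.54 and 12.64 in FVB/N nodes, a measured difference of -1.24 and a fitted one of -0.49 (adjusted p = 0.117). Class I genes fell in 3 of 15, against 7.98% of all genes and with 1 fall without surrogate variables, Tapbpl by 1.08 and 2 others, Psme1 and Nlrc5, whose measured differences were 0.32 and -0.04. Interferon-stimulated genes fell in 6 of 26, of which only Cxcl10 passed without FVB/N nodes 2 and 3 (adjusted p = 0.0332). None rose in the full fit, where 8.59% of all genes rose and 7.98% fell. Without surrogate variables 2 fell and 1 rose, and among batch A arrays 2 fell and 3 rose. The median of the list was -0.31 as fitted, -0.00 as measured and 0.26 among batch A arrays. The falls numbered 2 without lymphoma mouse 3 or without FVB/N mouse 3, and 3 without lymphoma mouse 4 or 5. The mean of the interferon list in lymphoma nodes ran from 6.75 in mouse 4 to 8.82 in mouse 2, around the 8.02, 7.57 and 7.97 of FVB/N nodes.

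Dendritic cell genes fell in 8 of 24 and rose in 1, against 7.98% and 8.59% of all genes. Fscn1, the actin-bundling protein of mature dendritic cells, had the clearest fall, between 7.06 and 8.20 (median 7.69) in lymphoma nodes, against 11.53, 10.90 and 11.49 in FVB/N nodes (-3.17, SE 0.38, adjusted p = 2.86e-06). Ccl22, a chemokine of the same cells, lay between 6.22 and 6.75 (median 6.36) in lymphoma nodes, against 9.16, 8.15 and 9.14 in FVB/N nodes (-2.63, SE 0.32, adjusted p = 3.55e-06). Itgae (CD103), carried by migratory dendritic cells and some T cells, fell by 2.11 and Ccl17 by 1.36. None of these 4 overlapped between the groups. The riser was Tcf4 (E2-2), a factor of plasmacytoid dendritic cells and B cells, by 1.42, whereas Siglech, specific to plasmacytoid cells, did not pass (adjusted p = 0.14). The mast cell protease Mcpt4 fell by 2.18 (SE 0.44, adjusted p = 0.00104) and Cpa3 by 1.85 (SE 0.47, adjusted p = 0.00718), 2 of 11 mast cell and basophil genes.

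Stromal and vascular genes depended on which FVB/N nodes were used. Of 25 endothelial genes 9 fell and 2 rose, and the falls numbered 2 without FVB/N nodes 2 and 3 and 3 without node 3 alone. In the full fit 7.98% of all genes fell and 8.59% rose. FVB/N node 1 had an endothelial mean of 6.92, inside the lymphoma range of 6.83 to 7.13, while nodes 2 and 3 stood at 8.03 and 8.37. The same held for reticular stroma, with lymphoma means between 6.26 and 7.25 and FVB/N means of 6.90, 8.54 and 8.79. Nodes 2 and 3 are also those with salivary gland transcripts, whose part in these differences was not tested. Some members were lower in lymphoma nodes than in each FVB/N node. Ccl19, the stromal chemokine that binds Ccr7, lay between 6.87 and 8.28 (median 7.37) in lymphoma nodes, against 9.28, 11.39 and 11.95 in FVB/N nodes (-2.05, SE 0.44, adjusted p = 0.00186), and passed without nodes 2 and 3 (adjusted p = 0.000338).

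Glycam1, given above, fell by 2.67 as fitted and 4.05 as measured (SE 0.72, adjusted p = 0.0112), the only one of 11 high endothelial venule genes to pass (2 without FVB/N nodes 2 and 3). Lyve1, the hyaluronan receptor of lymphatics, lay between 5.84 and 7.30 (median 6.07) in lymphoma nodes, against 8.15, 9.38 and 9.75 in FVB/N nodes (-1.78, SE 0.50, adjusted p = 0.0152). Prox1, the factor of lymphatic identity, fell by 1.11 (SE 0.36, adjusted p = 0.0343). All 3 also passed against FVB/N node 1 alone (adjusted p 0.0324, 0.00892 and 0.016). The endothelial riser other than Erg was Eng (endoglin), between 9.95 and 10.88 (median 10.28) in lymphoma nodes, against 7.63, 9.14 and 9.68 in FVB/N nodes (2.18, SE 0.37, adjusted p = 0.000162). Matrix genes changed in 3 of 27, lymphatic genes in 3 of 13, reticular stroma in 5 of 21 and follicular dendritic cell genes in 2 of 12 (2, 3, 4 and 1 without FVB/N nodes 2 and 3). Of all genes 16.6% changed in either direction in the full fit. Without surrogate variables 11 matrix, 5 lymphatic, 16 reticular stroma and 6 follicular dendritic cell genes fell, against 1, 2, 3 and 1 with them. With surrogate variables 1 of 26 macrophage genes changed, Maf, which fell by 0.95, while 9 fell without them and 5 among batch A arrays. The median of the list was 0.18 as fitted but -1.21 as measured.

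**Figure D4:**
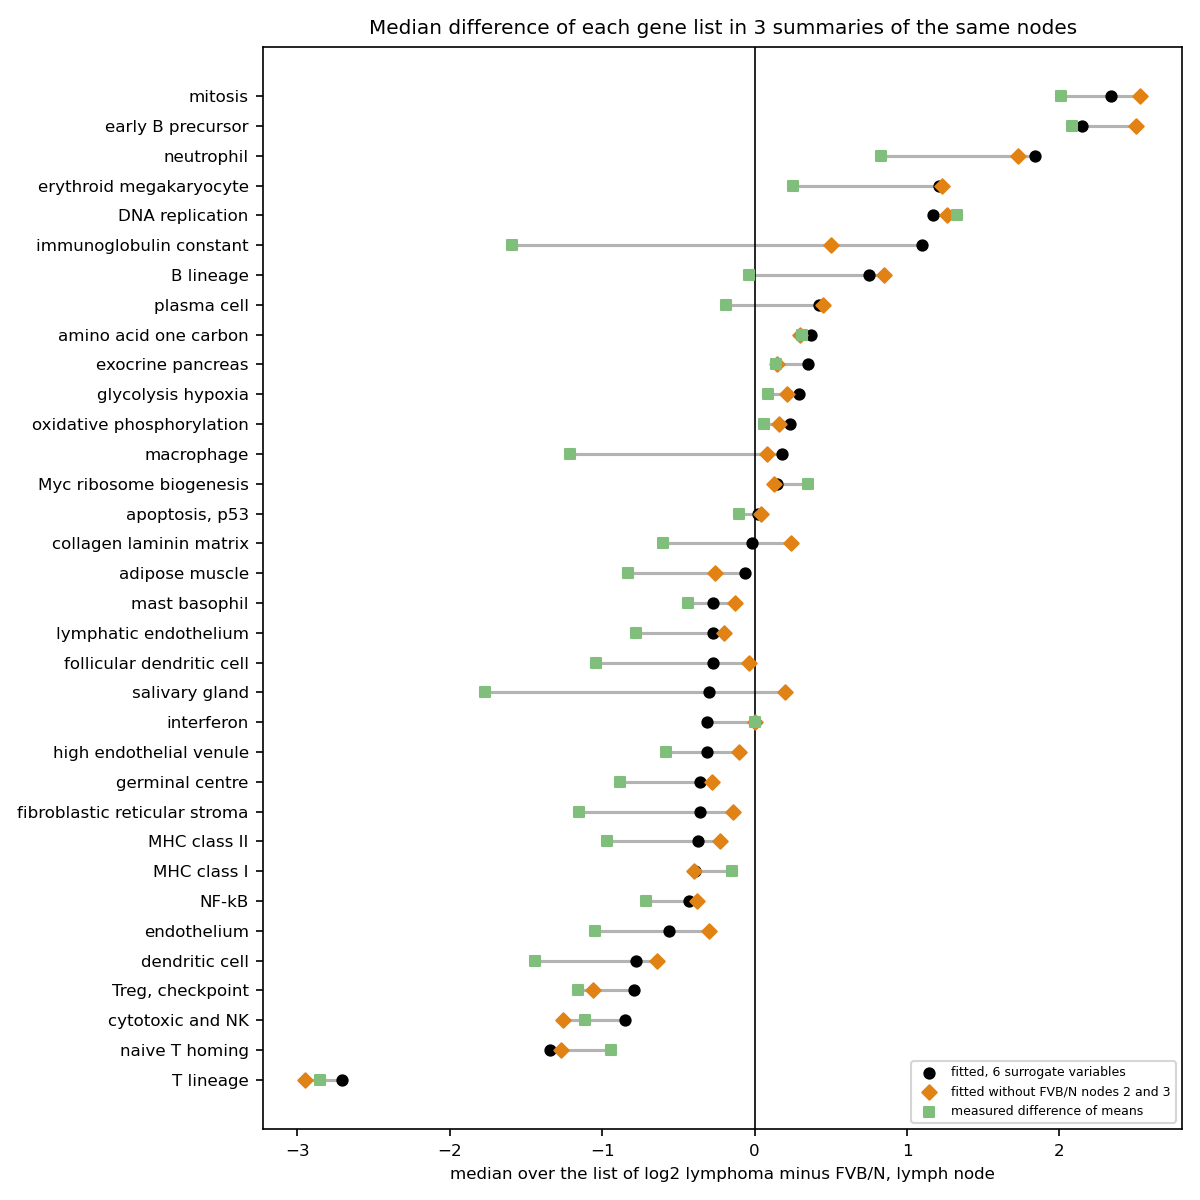
Median over each list of the log2 difference lymphoma minus FVB/N in the node, in 3 summaries: fitted with 6 surrogate variables, fitted without FVB/N nodes 2 and 3, and measured as the difference of group means. Mitosis, early B cell and T lineage medians lie close together. Macrophage, immunoglobulin constant, B lineage, plasma cell and apoptosis medians change sign between the fitted and the measured summaries.

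Neutrophil and erythroid genes rose as fitted, but less clearly as measured. Of 21 neutrophil genes 10 rose, and 3 did without FVB/N nodes 2 and 3, or 6 without node 3 alone. The median of the list was 1.84 as fitted and 0.83 as measured, and 8.59% of all genes rose in the full fit. Ngp, a granule protein of immature neutrophils, stood at 10.43, 5.21, 6.74, 9.25, 6.97 and 8.87 in lymphoma mice 1 to 6, against 5.23, 5.10 and 4.87 in FVB/N nodes (3.63, SE 0.90, adjusted p = 0.0062, or 0.056 without FVB/N nodes 2 and 3). Mmp9, a matrix protease of neutrophils, lay between 6.61 and 9.46 (median 8.74) in lymphoma nodes, against 6.31, 6.78 and 7.01 in FVB/N nodes (3.35 as fitted and 1.80 as measured, SE 0.56, adjusted p = 0.000127). At least 1 lymphoma node lay within the FVB/N range for both. Among 18 erythroid and megakaryocyte genes 8 rose, against 8.59% of all genes, with a median of 1.21 as fitted and 0.25 as measured. The count was 4 without FVB/N nodes 2 and 3 or without node 3 alone, 2 without FVB/N node 1 and 5 without lymphoma mouse 5. Tfrc, the transferrin receptor, which dividing cells of any kind also need, lay between 9.38 and 10.48 (median 9.73) in lymphoma nodes, against 7.96, 7.54 and 7.52 in FVB/N nodes (2.18, SE 0.34, adjusted p = 6.83e-05). Kel and Slc4a1, found chiefly in red cells, rose by 2.12 and 2.84 as fitted, with measured differences of 0.33 and 0.65.

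Calls in the metabolic lists stand beside 8.59% of all genes higher and 7.98% lower. Of 20 glycolysis and hypoxia genes 4 rose and 1 fell, of 30 oxidative phosphorylation genes 4 rose, and of 17 amino acid and one-carbon genes 3 rose and 1 fell. None of the glycolysis genes and 1 of the oxidative phosphorylation genes, Ndufs8, passed without FVB/N nodes 2 and 3. Oxidative phosphorylation rises numbered 18 without lymphoma mouse 5, 10 without FVB/N mouse 1 and 2 without FVB/N mouse 3. Glycolysis rises numbered 7 without FVB/N mouse 1 and 2 without lymphoma mouse 1 or FVB/N mouse 3, and amino acid rises 1 without FVB/N nodes 2 and 3. Slc43a1, a transporter of large neutral amino acids, rose by 2.00 (SE 0.41, adjusted p = 0.00127), with lymphoma nodes between 8.25 and 9.29 and FVB/N nodes at 6.84, 8.68 and 7.20.

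The change between lymphoma and FVB/N was then set against the same change in the spleens of the same mice. In spleen 2462 genes passed (12.3%), 1623 of them also in the node with the same sign and 2 with the opposite sign. The 2 changes differed in 189 genes (0.948%), 94 more positive in the node and 95 more negative. The count depends on single animals and was 30 without the node of FVB/N mouse 1. B lineage genes stood out by count: 6 of 22 changed more positively in the node and none more negatively. Ebf1 averaged 11.79 ± 0.20 in lymphoma nodes (SD, n = 6) and 9.94 ± 0.34 in FVB/N nodes (SD, n = 3), while in spleen it averaged 11.56 ± 0.29 with lymphoma (SD, n = 6) and 11.23 ± 0.15 in FVB/N (SD, n = 3). Its changes differed by 1.45 (SE 0.24, adjusted p = 0.00381). The FVB/N mean was the lowest of the 4, in the node. The differences of Cd79b, Blnk, Btk and Pou2af1 were 1.45, 1.42, 1.15 and 0.78 (largest SE 0.20, highest adjusted p 0.0206). The B lineage list averaged 9.45 to 10.11 in lymphoma nodes, against 9.74, 9.71 and 10.11 in FVB/N nodes, and 9.14 to 10.40 in lymphoma spleens, against 11.01 to 11.06 in FVB/N spleens.

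Dendritic cell genes differed in the other direction, 4 of 24 more negative in the node and none more positive. Fscn1 averaged 7.66 ± 0.50 in lymphoma nodes (SD, n = 6) and 11.31 ± 0.36 in FVB/N nodes (SD, n = 3), and in spleen 7.15 ± 0.55 with lymphoma (SD, n = 6) and 8.44 ± 0.03 in FVB/N (SD, n = 3). Its changes differed by -1.96 (SE 0.44, adjusted p = 0.032), those of Ccl22 by -1.85 (SE 0.37, adjusted p = 0.0175) and those of Mcpt4 by -2.34 (SE 0.51, adjusted p = 0.0272). Mast cell and basophil genes went both ways, since the changes of the basophil protease gene Mcpt8 differed by 1.47 (SE 0.33, adjusted p = 0.0319). Ccl22 was low in spleens of both states (6.03 and 6.59 on average with lymphoma and in FVB/N). The largest positive difference was Ccl3, an inflammatory chemokine, at 2.98 (SE 0.52, adjusted p = 0.00656). It averaged 7.51 in lymphoma nodes and 7.72 in FVB/N nodes, but 7.72 in lymphoma spleens and 11.40 in FVB/N spleens. Plac8, expressed in lymphoid and myeloid cells, differed by 2.25 (SE 0.37, adjusted p = 0.00432), and rose in the node by 3.09. One lymphoma spleen, that of mouse 4, carries a disease code that other arrays use for controls, but it is titled and described as lymphoma and was kept there.

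**Figure D5:**
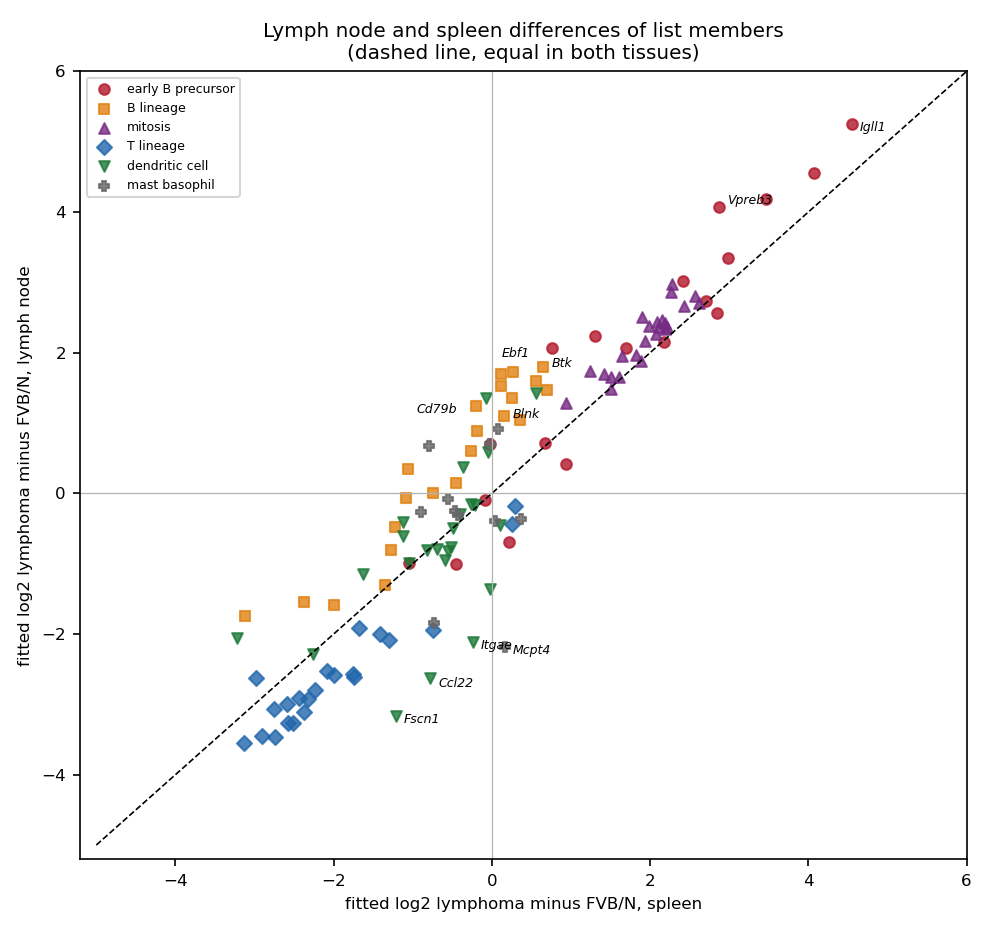
Fitted log2 difference lymphoma minus FVB/N in lymph node (vertical) against spleen (horizontal) for the members of 6 gene lists, 1 point per gene, with equality dashed. B lineage genes such as Ebf1 and Cd79b lie above the line, the dendritic cell genes Fscn1, Ccl22 and Itgae and the mast cell gene Mcpt4 lie below it, and mitosis genes lie near it.

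The 6 lymphoma nodes were not uniform. The genes with the widest spread among them were taken by SD. Igf2, a fetal growth factor, stood at 6.30, 6.64, 11.60, 11.62, 12.67 and 7.83 in lymphoma mice 1 to 6, against 6.33, 7.05 and 6.77 in FVB/N nodes. Mice 3, 4 and 5 were thus far above every control, and mice 1 and 2 were inside or just below the control range. Scin, an actin-severing protein, stood at 5.69, 5.35, 10.37, 8.60, 10.36 and 6.08 in lymphoma mice 1 to 6, against 5.54, 5.59 and 5.81 in FVB/N nodes. Il1r2, the decoy receptor of interleukin-1, stood at 7.81, 5.84, 9.61, 10.08, 11.12 and 6.26, against 6.46, 6.63 and 6.24 in FVB/N nodes. Ccr1, a chemokine receptor, stood at 4.96, 4.63, 7.24, 7.49, 9.25 and 4.86, against 4.49, 4.64 and 4.90. All 4 were highest in mice 3, 4 and 5, as were Bex6, Smoc1 and Sh2d1b1. Fitted rises of these genes, such as 5.06 for Igf2 and 3.73 for Ccr1, exceed the measured ones of 2.73 and 1.73.

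Other genes varied in other ways. Gria2, a glutamate receptor subunit, stood at 10.03 in lymphoma mouse 2 and 6.92 in mouse 6, against 4.30 to 4.97 in the other 4 and 4.10 in each FVB/N node. Adgrf1 stood at 9.94 and the nucleotide carrier gene Slc25a31 at 8.96 in mouse 2, where no other lymphoma or FVB/N node exceeded 5.60 and 4.50. Mucl2 reached 10.50 in mouse 5, the lymphoma node with salivary gland transcripts, against 6.82 in FVB/N node 2 and at most 4.48 in the other 7. The stromal proteoglycan Dcn ran from 5.01 in mouse 4 to 9.89 in mouse 1, against 9.28, 11.89 and 12.00 in FVB/N nodes.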

How the data were processed

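The deposited table gives a log2 level for each probe set and array, which the authors made with fRMA, a frozen form of robust multiarray averaging, per the labels' series design text. Software versions are not given in the sources used here, and scanner files were not used, so signal over background was not assessed. Of 35556 probe sets with values, 21789 had 1 gene symbol, and the one with the highest mean stood for a gene, which left 19938 genes with no filter on low values. Array medians lay between 6.67 and 6.89.

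All 30 arrays entered 1 limma 3.58.1 fit in R 4.3.3 (lmFit, contrasts.fit, eBayes) with 6 groups and 6 surrogate variables, after the design text, computed in R (5 iterations, number from 20 permutations at a limit of 0.1). Fitted differences, SE and adjusted p come from it, and measured differences are those of group means. With 3 control nodes the number of arrays limits precision. The p-values rest on a spread pooled over all 30 arrays, left after the 6 surrogate variables and moderated across genes. This fit had no term for mouse, so node and spleen arrays of a mouse counted as independent. Data were also simulated for the node contrast over 19938 genes. The fit recovered 25.4%, 64.2% and 100% of genes changed by 0.5, 1 and 2 log2 units, with 2 false calls. There 67, 67 and 66 genes were changed, group means were otherwise equal and noise was independent between arrays. The real data hold many more changes and correlated organs of the same mouse, so these figures give no error rate for them.

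The node and spleen arrays of a mouse come from 1 animal. Their deviations from group means correlated at 0.29 to 0.68 in lymphoma mice and at -0.01 to 0.05 in FVB/N mice, and the node and spleen changes differed in 159 genes within mice and in 269 with mouse as a random block, against 189 without.

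Members and gene lists (35 lists) were chosen with earlier results of these data known. Named genes were the 14 largest rises and 14 largest falls among called genes whose groups did not overlap, leaving out predicted genes, receptor segments and neighbouring-tissue and sex-linked lists, up to 6 members per list by adjusted p, and the 6 largest differences each way between node and spleen. Others were named to complete a count, after their values were seen. Alternatives changed the surrogate variables, batch, probe set rule, low-level filter, normalization and arrays used.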

Additional observations from a re-analysis of the deposited data

Results flagged for a closer look

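In 7 of 158 named genes 1 lymphoma node stood apart from the other 5 by more than Dixon's limit for 6 samples, which chance passes in about 1 group in 20. H2-M2 was low in mouse 2 (5.44, others 6.40 to 6.96), as was Car2 (8.80, others 10.60 to 11.15), and Max was high there (9.93, others 9.31 to 9.50). Mouse 5 was high for Derl3 (9.48, others 7.07 to 7.90) and Gp5 (7.97, others 6.67 to 7.03), mouse 1 for Emcn (6.48, others 4.95 to 5.32), and mouse 3 was low for Fcgr2b (8.81, others 10.01 to 10.55).

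For 25 named genes the change between lymphoma and FVB/N differed between node and spleen by the test of the difference itself (adjusted p under 0.05). It was more positive in the node for the B cell genes Vpreb3 (1.20), Pou2af1 (0.78), Btk (1.15), Blnk (1.42), Cd79b (1.45), Ebf1 (1.45) and Mzb1 (1.70). The same held for Mcpt8 (1.47), Adgrg1 (1.47), Odc1 (1.44), Ccl3 (2.98), Plac8 (2.25), Ptgs2 (2.18), Mmp12 (2.06), Hes1 (2.06) and Jun (1.99). Jun averaged 10.41 in lymphoma nodes and 9.80 in FVB/N nodes, and 10.75 in lymphoma spleens and 12.18 in FVB/N spleens. The change was more negative in the node for Fscn1 (-1.96), Ccl22 (-1.85), Itgae (-1.86), Mcpt4 (-2.34), Adcy6 (-1.64), Zfp763 (-1.47), Basp1 (-1.14), Pdcd1 (-1.06) and Mthfd2 (-0.94).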

How the results depend on the processing

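Without FVB/N nodes 2 and 3 the node and spleen changes differed in 124 genes, without surrogate variables in 69, with 3 in 45, with batch and tissue list means as covariates in 69, and with only the arrays compared in 89, against 189 as reported. Leaving out 1 node at a time gave 30 (without FVB/N mouse 1) to 247, and 2692 (without FVB/N mouse 1) to 4170 (without lymphoma mouse 5) for the 3304 genes of the node. Over all other settings the node count lay between 2309 and 4485. The share of calls higher in lymphoma was 51.8% as reported, and it was 41.8% without surrogate variables, 42.0% with tissue covariates and 41.3% with only the arrays compared. Of 158 named genes, 89 kept direction and threshold under each of up to 21 settings. So did 27 of the 28 taken as the largest changes among called genes without overlap, the exception being Cdh17 (highest adjusted p 0.0951). That choice used these same values, so the 27 give no separate check. Called rises with overlap, such as Igf2 (5.06), were outside the 28. Direction changed for Prdm1 (-0.26 without surrogate variables or with only the arrays compared, -0.15 with batch, -0.03 with tissue covariates, -0.16 in batch A) and Derl3 (-1.37, -1.37, -1.23 and, in batch A, -1.62, and -0.39 to 1.50 when 1 node is left out, the lowest without lymphoma mouse 5). It also changed for Lef1 (0.10 without surrogate variables or with only the arrays compared, 0.17 with batch, 0.16 in batch A), Psme1 (0.32 in the same first 2 settings), Nlrc5 (0.05 with batch, 0.18 in batch A) and Ndufb8 (-0.03 in batch A). The cause was not tested.

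Without surrogate variables 17 endothelial, 16 stromal and 17 dendritic cell genes fell, against 9, 3 and 8, and 3 neutrophil and 2 erythroid genes rose, against 10 and 8. In the same setting 13 regulatory T cell and checkpoint, 6 MHC class II, 5 high endothelial venule and 4 mast cell genes fell, against 8, 1, 1 and 2, and 5 amino acid genes rose, against 3. Interferon falls numbered 2, against 6, and no glycolysis or oxidative phosphorylation gene rose, against 4 of each. Among batch A arrays 17 dendritic cell genes fell and 2 neutrophil genes rose. Mouse numbers do not pair the nodes (r -0.08, -0.11 and 0.07), and with the number as a replicate block 3069 genes passed in the node and 138 in the difference from spleen. No signal over background was available, so dim genes could not be marked.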
